A study of Mus musculus with 9 samples.

Results

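Exosomes of 2 mouse pancreatic adenocarcinoma lines, Panc02 and KPC, were compared by the RNA of the primary hepatic stellate cells that received them. The comparison took the 3 libraries of the Panc02 group and the 3 of the KPC group, which are 6 of the 9 libraries of the series, and every gene with at least 1 FPKM in at least 3 of the 9 libraries. These were 10368 of the 11051 genes in the deposited table. Each gene was compared on the scale log2(FPKM + 1), over the group means and within each replicate number. The 3 control libraries served to tell a larger response in a shared direction from a response in the opposite direction.

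The Panc02 group received exosomes of Panc02 cells, the KPC group exosomes of KPC cells, and the control group exosomes of normal duct epithelium, cultured as primary cells from mouse pancreas. In all 3 groups the stellate cells were isolated from C57BL/6 mouse liver and grown in medium with serum depleted of exosomes. The donor cells had shed the vesicles into medium with exosome-free serum over 48 h. The sources used here do not give the dose of exosomes, how long the stellate cells were exposed to them or the clone of the KPC line. Cells without added exosomes were not analysed here. The labels do not tell whether the 3 libraries of a group stem from different cultures or mice, so p-values measure only the spread between these samples.

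Hepatic stellate cells are pericytes that store vitamin A in the healthy liver, and on injury they turn into contractile cells that secrete collagen. Transforming growth factor beta, acting through Smad factors, and the Yap and Tead factors that answer to a stiff substrate are the best known drivers of that change. Panc02 was raised in a C57BL/6 mouse with a chemical carcinogen, whereas KPC lines come from genetically engineered mice that develop pancreatic tumours. Exosomes are small vesicles that carry proteins, lipids and RNA from the cell that sheds them, and vesicles of pancreatic tumours have been studied as signals to the liver.

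The sum of all FPKM ranged from 257119 to 307280 over the libraries, and the read depth behind them is unknown. Mitochondrially encoded genes made up 28.3%, 11.2% and 12.8% of the FPKM in Panc02 replicates 1, 2 and 3, 33.6%, 13.6% and 11.2% in the KPC replicates, and 26.4%, 15.9% and 14.9% in the control replicates. Replicate 1 thus stood apart in every group, on this share and on the first principal component of all genes (59.0% of the variance). The mean share was 17.5% ± 9.45 in the Panc02 group and 19.4% ± 12.3 in the KPC group (SD, n = 3 each), a difference within the spread (exact permutation test, two-sided, p = 0.7, where 0.1 is the smallest possible). On the second component (15.3% of the variance) the Panc02 libraries lay at 12.4, 9.57 and 8.46, the KPC libraries at 4.48, 2.05 and 6.39, and the control libraries at -12.9, -17.4 and -13.1. Of 16 stellate cell markers, 8 were in the table, and their summed FPKM was 1120 to 1460 in the Panc02, 973 to 1370 in the KPC and 875 to 1040 in the control libraries. The other 8, among them Des, Lrat and Reln, were not among the genes used here. No marker on the hepatocyte or lymphocyte lists was among them either, and 4 of 14 macrophage markers summed to 9.34 to 13 FPKM in the Panc02, 8.73 to 14.9 in the KPC and 10.3 to 17 in the control libraries. Of 12 portal fibroblast and mesothelial markers, 6 were in the table. They summed to 183 to 277 FPKM in the Panc02, 167 to 286 in the KPC and 207 to 267 in the control libraries. Msln was the highest of them, at means of 72.7, 77.7 and 97.1 FPKM. The markers thus do not show how pure the stellate cultures were. A level in such bulk libraries cannot tell fewer cells of a type from less RNA per cell.

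No gene passed as different between Panc02 and KPC exosomes. With limma at a Benjamini-Hochberg adjusted p under 0.05, 0 of 10368 genes were higher and 0 lower (0%), and every adjusted p was above 0.99. At an unadjusted p under 0.05 there were 52 higher (0.502%) and 34 lower (0.328%). With the replicate number added to the model as a block, limma also called 0 higher and 0 lower, with 161 and 99 genes at an unadjusted p under 0.05 (1.55% and 0.955%). Both directions together made up 0.829% of genes, and 2.51% with the block. A calibrated test without any difference passes a share of about 0.05, so both fits may be strict. The 0 calls thus do not show that the lines act alike. By comparison, the model called 105 genes (1.01%) for Panc02 exosomes against control exosomes and 34 (0.328%) for KPC exosomes against the same 3 control libraries. With the block it called 440 (4.24%) and 174 (1.68%).

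The differences were small for most genes, and the intervals say how large a difference these libraries leave room for. Between the 5th and 95th percentile of genes, Panc02 minus KPC ran from -0.16 to 0.20 on the log2 scale, and 7 genes lay above 1 and 6 below -1. The median 95% interval reached 0.36 log2 to each side of the difference, and 0.23 with the replicate block. The intervals given for single genes are from the fit without the block. Some that include 0 there leave it out with the block, although no adjusted p was below 0.99 in either fit. In 9750 genes (94.0%) the whole interval lay between -1 and 1 log2. The 3 libraries of each group lay fully apart in 141 genes with Panc02 higher (1.36%) and 131 with Panc02 lower (1.26%). For Panc02 against control the groups lay apart in 1668 genes (16.1%), and for KPC against control in 1187 (11.4%).

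The genes that answered to tumour exosomes moved further from the control level with Panc02 exosomes than with KPC exosomes. To choose such genes without using the difference between the tumour lines, the mean of both tumour groups was set against control, and 48 genes rose (0.463%) and 83 fell (0.801%), 131 in all (1.26% of those tested, limma adjusted p under 0.05). In all 131 the Panc02 and KPC group means lay on the same side of the control mean, which a choice by their joint difference favours. The Panc02 mean was the further one in 122 of them (93.1%) and the KPC mean in 9 (6.87%). Over all tested genes Panc02 was further in 51.4% and KPC in 31.1%, and control lay between in 17.5%. All 48 genes that rose and 74 of the 83 that fell were among these 122. The median change from control was 1.00 log2 with Panc02 and 0.74 with KPC exosomes for the genes that rose, and -0.71 and -0.57 for those that fell.

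The same order held within replicate numbers, least clearly in the third. The Panc02 library lay further out than the KPC library of its number in 115, 119 and 87 of the 131 genes for numbers 1, 2 and 3 (87.8%, 90.8% and 66.4%), against 59.6%, 58.6% and 49.0% of all tested genes. The median outward difference was 0.23, 0.21 and 0.07 log2, against 0.04, 0.03 and 0 for all tested genes. In 70 of the 131 genes Panc02 lay further out in all 3 numbers, and in 2 genes KPC did. Over all 10368 tested genes these counts were 1432 and 683. With 1 library left out at a time, 25 to 161 genes were called for both tumour exosomes together, fewest without control replicate 3 (25) or control replicate 2 (27), and Panc02 was further out in 81.4% (without KPC replicate 1) to 100% of them. Without all 3 replicate 1 libraries it was 77.2% of 758 genes, and with the replicate block and all libraries 86.2% of 472 genes (4.55% of those tested). The 131 genes share their libraries and are not independent of each other, so these counts describe the libraries and carry no test. If the groups vary alike, the choice of genes favours neither line. The median within-group SD was 0.19 log2 in the Panc02, 0.22 in the KPC and 0.15 in the control group.

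**Figure D1:**
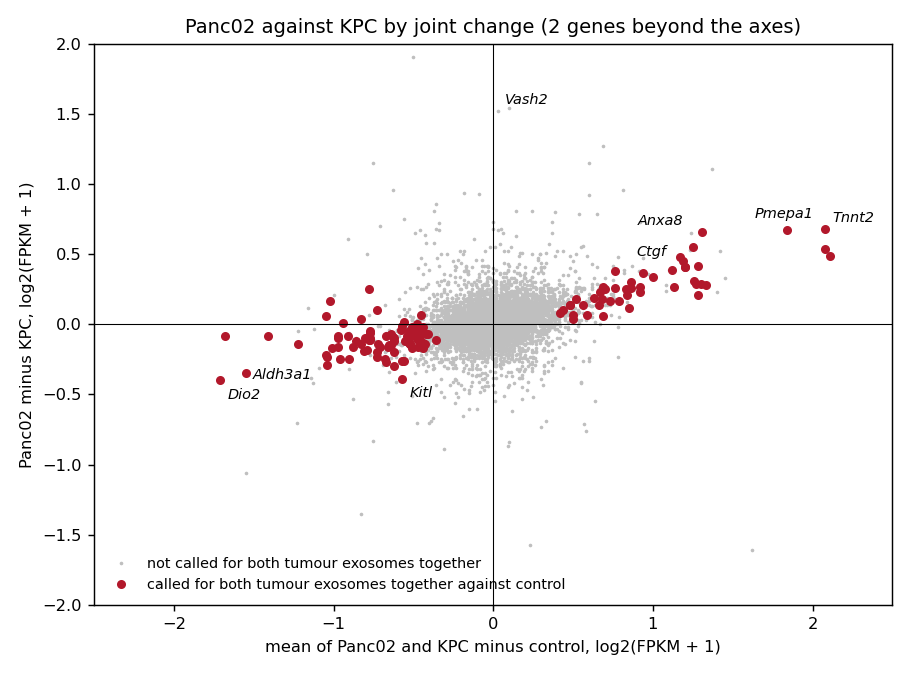
Each point is 1 of the tested genes. The horizontal axis is the mean of the Panc02 and KPC groups minus control and the vertical axis is Panc02 minus KPC, both as log2(FPKM + 1). The 131 red genes were called for both tumour exosomes together. All 48 on the right lie above 0 and 74 of the 83 on the left lie below 0, where the Panc02 mean is further from control.

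No gene had its Panc02 libraries on one side and its KPC libraries on the other side of all 3 control libraries. Both tumour groups lay above every control library in 305 genes (2.94%) and below every control library in 583 (5.62%), while the count of genes with opposite sides was 0 for each order. In terms of group means alone, control lay between the tumour groups in 17.5% of all tested genes and in 0 of the 131. The 131 were chosen by a joint difference from control, which makes a control mean between the groups unlikely. Their 0 is thus no separate sign of a shared direction. Of the 9 called genes with KPC further from control, Tcp11l2 had the largest difference, at 0.989, 1.15 and 1.01 FPKM in Panc02, 0.708, 0.553 and 0.932 in KPC and 2.10, 2.59 and 2.03 in control libraries. It was 0.25 log2 less reduced with Panc02 exosomes (95% interval -0.01 to 0.51), and was picked here after its values were seen.

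Among the matrix and signalling genes above control, Ctgf, Has2 and Pmepa1 had all 3 Panc02 libraries above all 3 KPC libraries. They are examples of the 24 genes, 12 in each direction, with the lowest p among those whose groups lay apart and whose difference had 1 sign in all 3 numbers. Their p-values chose them, so the differences and intervals given are descriptions, and no adjusted p was below 0.99. Ctgf (ENSMUSG00000019997.11, chromosome 10, 24595442 to 24598683, GRCm38), a matricellular protein induced by TGF-beta and by Yap, was at 126, 139 and 138 FPKM in the Panc02 libraries, against 85.5, 95.9 and 114 in the KPC and 51.4, 48.7 and 49.1 in the control libraries. The order was Panc02, then KPC, then control, with no overlap between any groups. The difference between Panc02 and KPC was 0.45 log2 (95% interval 0.19 to 0.72). Exons of Ctgf overlap another gene on the opposite strand, and the sources used here do not say whether counting used the strand.

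Has2, which makes hyaluronan, was at 14.0, 16.8 and 16.2 FPKM with Panc02, 10.9, 11.3 and 13.1 with KPC and 5.14, 6.44 and 5.57 with control exosomes. Its 3 groups did not overlap either, and the difference between the tumour lines was 0.39 log2 (0.12 to 0.66). Has2 also has an overlapping gene on the other strand. Pmepa1, which TGF-beta induces and which holds back Smad factors, was at 30.6, 31.1 and 31.8 FPKM with Panc02 exosomes. The KPC libraries spread from 14.2 and 18.8 to 26.5 FPKM, and the control libraries were at 6.79, 5.03 and 6.67. The difference was 0.67 log2 (0.20 to 1.13), and within numbers it was 1.05, 0.70 and 0.25. For Adam12, a membrane metalloprotease of mesenchymal cells, the Panc02 libraries had 10.6, 12.3 and 10.3 FPKM, against 6.32, 6.54 and 10.4 in KPC and 1.13, 1.46 and 1.51 in control libraries. Here KPC replicate 3 reached the Panc02 level, so the groups overlapped, with a difference of 0.49 log2 (0.08 to 0.90).

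Other genes above control in both tumour groups showed the same order with smaller or less certain differences. Vegfa, the angiogenic growth factor, was at 34.5, 33.4 and 31.6 FPKM with Panc02, 26.5, 25.5 and 31.5 with KPC and 17, 16.3 and 16.6 with control exosomes, 0.25 log2 between the tumour lines (0.02 to 0.48). Creb3l1, a membrane-bound factor that drives secretory and collagen genes, was at 14.3, 14 and 14.9 FPKM with Panc02, 10.1, 11.6 and 13.2 with KPC and 5.39, 4.44 and 4.23 with control exosomes (0.29 log2, 0.02 to 0.57). Fbn1, which forms microfibrils, was 0.37 log2 higher (0.02 to 0.71), although in number 3 it was 18.3 FPKM with Panc02 and 19.3 with KPC. Inhba, a subunit of activin, differed by 0.18 log2 (-0.13 to 0.49) and Igfbp7, a secreted binding protein, by 0.42 (-0.09 to 0.93). Both intervals, from the fit without the block, include 0. With the block the unadjusted limma p was 0.0463 for Inhba and 0.0175 for Igfbp7, but no adjusted p was below 0.99.

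Anxa8 and Tnnt2 were low with control exosomes, rose with tumour exosomes and lay highest with Panc02. Their promoters, with those of Kitl and Vash2 described further on, are shown because these genes were named by p in both fits and were found by symbol in the RefSeq promoter table of GRCm38.p6 (4 of the 9 genes looked up). Each window runs from 250 bases before to 50 bases after the transcription start, read in the direction of the gene. Capitals mark matches, on either strand, to the Tead motif GGAATG, the Smad motif CAGACA or the AP-1 motif TGANTCA. Of 32851 promoters of this length, 14.7% hold the first, 21% the second and 7.81% the third. The windows are chr14:34085729-34086028 on the plus strand for Anxa8, chr1:135836084-135836383 on the plus strand for Tnnt2, chr10:100015571-100015870 on the plus strand for Kitl and chr1:190979247-190979546 on the minus strand for Vash2.
Anxa8: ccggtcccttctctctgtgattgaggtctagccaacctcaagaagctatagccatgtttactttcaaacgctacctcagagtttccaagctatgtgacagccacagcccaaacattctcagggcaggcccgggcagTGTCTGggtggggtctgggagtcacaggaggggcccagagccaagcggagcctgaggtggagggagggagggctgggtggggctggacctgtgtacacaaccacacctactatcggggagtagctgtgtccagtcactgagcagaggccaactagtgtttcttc
Tnnt2: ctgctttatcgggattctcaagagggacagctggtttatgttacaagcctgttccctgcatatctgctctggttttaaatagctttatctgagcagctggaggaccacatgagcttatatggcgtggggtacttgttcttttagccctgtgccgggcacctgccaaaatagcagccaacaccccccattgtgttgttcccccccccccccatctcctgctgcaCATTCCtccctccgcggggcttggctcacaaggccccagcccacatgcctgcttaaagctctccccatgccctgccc
Kitl: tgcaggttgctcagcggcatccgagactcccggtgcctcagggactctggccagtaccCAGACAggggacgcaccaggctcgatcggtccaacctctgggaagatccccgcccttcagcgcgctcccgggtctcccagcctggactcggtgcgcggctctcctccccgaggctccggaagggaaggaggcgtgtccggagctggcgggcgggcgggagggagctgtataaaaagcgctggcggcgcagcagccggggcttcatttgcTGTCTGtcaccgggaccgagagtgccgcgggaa
Vash2: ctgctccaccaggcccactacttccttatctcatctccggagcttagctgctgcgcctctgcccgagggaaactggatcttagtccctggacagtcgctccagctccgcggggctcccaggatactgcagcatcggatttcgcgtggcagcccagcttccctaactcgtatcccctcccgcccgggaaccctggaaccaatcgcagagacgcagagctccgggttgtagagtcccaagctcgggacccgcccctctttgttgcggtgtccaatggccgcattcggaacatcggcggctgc
The Anxa8 window holds 1 Smad match, 114 bases before the start. The Tnnt2 window holds 1 Tead match, 27 bases before the start. In chicken, the cardiac troponin T promoter is where the muscle form of this motif, M-CAT, was described. The Kitl window holds 2 Smad matches, 192 bases before and 17 bases after the start, and the Vash2 window holds none of the motifs. The RefSeq start used for Kitl lies 191 bases from the deposited gene start. Tnnt2 and Vash2 each have 2 RefSeq windows, and only the window nearest the deposited start was searched. A match of so few letters is common and shows no binding.

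Anxa8, a calcium-dependent phospholipid-binding protein, was at 3.88, 2.55 and 4.06 FPKM with Panc02, 1.63, 1.79 and 2.06 with KPC and 0.495, 0.453 and 0.352 with control exosomes. The 3 groups were apart, and the difference of 0.66 log2 between the tumour lines (0.32 to 0.99) had the lowest p among the genes of this kind. Tnnt2, the troponin T of heart muscle, was at 7.95, 4.93 and 4.66 FPKM with Panc02, 3.77, 2.27 and 3.67 with KPC and 0.376, 0.12 and 0.278 with control exosomes. Every Panc02 library again lay above every KPC library, by 0.68 log2 between means (0.20 to 1.17). Because 1 is added to each FPKM, these differences understate the ratio of such low levels.

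Of the epithelial markers, Krt8, Krt18, Krt19 and Epcam were highest in Panc02 replicate 1, which also had the highest Tnnt2, while Sox9 was not. Of 14 such markers, 5 were in the table, and they summed to 25.8 to 36.7 FPKM in the Panc02, 23 to 25.5 in the KPC and 21.5 to 23.9 in the control libraries, mostly from Sox9. Sox9 was at 21.6, 23 and 23.3 FPKM in Panc02, 19.3, 22.3 and 21.1 in KPC and 22.6, 20.9 and 21.3 in control libraries. Krt8 was at 6.54, 2.14 and 2.53 FPKM in Panc02, 1.74, 1.93 and 1.70 in KPC and 0.251, 0.127 and 1.27 in control libraries. Krt18 was at 0.762, 0.664 and 0.537 FPKM in Panc02, 0.68, 0.403 and 0.399 in KPC and 0.583, 0.472 and 0.509 in control libraries. Krt19 was at 3.89, 0 and 1.01, against 0.819, 0.489 and 0.0401, and 0, 0 and 0.451 FPKM in the same order, and Epcam at 3.89, 0 and 0.767, against 0.519, 0.351 and 0, and 0, 0 and 0.378. In Panc02 replicate 2, Krt19 and Epcam are listed at 0, while Krt8 was at 2.14 and Krt18 at 0.664 FPKM. Anxa8, at 2.55, Tnnt2, at 4.93, and Krt8 there lay above every KPC library, and Krt18 above KPC replicates 2 and 3. The part of these markers in the other differences was not tested.

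Genes below control with tumour exosomes included secreted signals that lay lowest with Panc02. Kitl, the stem cell factor that binds the receptor Kit, was at 28.2, 29 and 27.5 FPKM with Panc02, 39.3, 38.1 and 34.5 with KPC and 45.3, 48.5 and 52.3 with control exosomes. No groups overlapped, and Panc02 was 0.39 log2 below KPC (difference -0.39, -0.60 to -0.18). Cxcl5, a chemokine for neutrophils, was at 110, 111 and 117 FPKM with Panc02, 129, 142 and 146 with KPC and 177, 213 and 189 with control exosomes, a difference of -0.30 (-0.53 to -0.07). Il6, the interleukin, was low in every library, at 0.846, 0.956 and 0.81 FPKM with Panc02, 1.23, 1.37 and 1.1 with KPC and 1.6, 2.27 and 2.29 with control exosomes. Its groups did not overlap, but the interval of the difference reached 0 (-0.26, -0.52 to 0.00).

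Aldh3a1, Ptgfr and Dio2 also had their lowest mean with Panc02 and their highest with control exosomes. Aldh3a1, an aldehyde dehydrogenase, was at 0.452, 0.759 and 0.644 FPKM with Panc02, 1.07, 1.24 and 0.874 with KPC and 4.38, 4.45 and 4.17 with control exosomes, a difference of -0.35 log2 (-0.59 to -0.10) between the tumour lines. Ptgfr, the prostaglandin F receptor, was at 8.5, 8.92 and 9.02 FPKM with Panc02, 10.9, 10.4 and 10.2 with KPC and 15.7, 17.7 and 16.5 with control exosomes (-0.23, -0.42 to -0.04). Most of the fall of both genes was thus shared by the tumour lines. Dio2, which activates thyroid hormone, was at 4.88, 3.72 and 3.12 FPKM with Panc02, 7.53, 4.96 and 4.15 with KPC and 17.3, 15.7 and 18.7 with control exosomes. Its tumour groups overlapped across numbers, although Panc02 was lower in each number (-0.40, -0.86 to 0.06). Exons of Dio2 and Ptgfr overlap genes on the other strand.

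**Figure D2:**
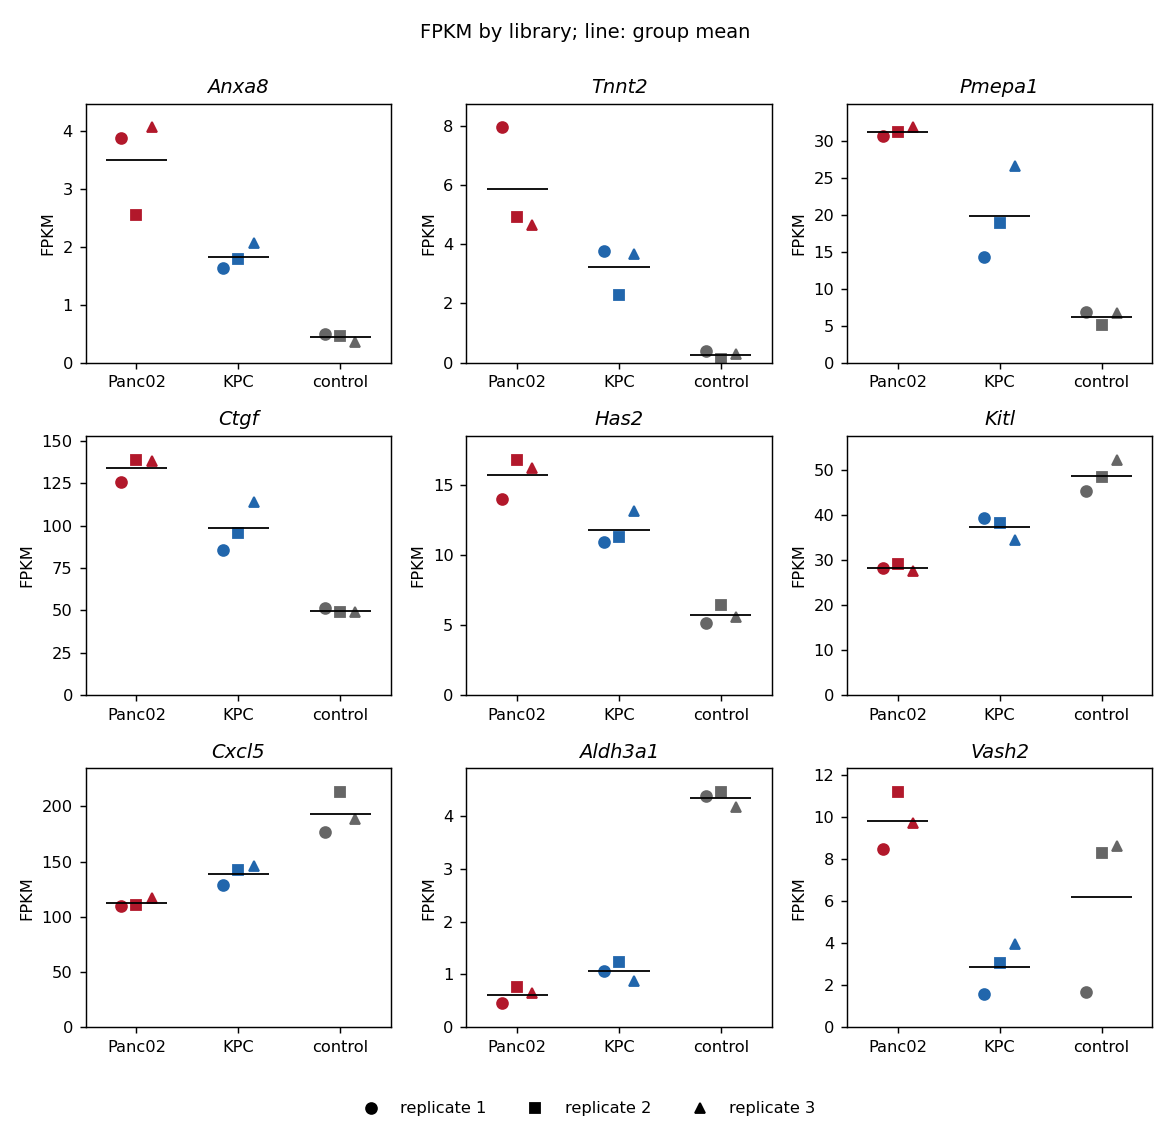
FPKM of 9 genes in the 3 Panc02, 3 KPC and 3 control libraries, with the vertical axes starting at 0, a marker shape for each replicate number and a line at each group mean. Ctgf, Has2, Anxa8, Tnnt2 and Pmepa1 step down from Panc02 to KPC to control, Kitl, Cxcl5 and Aldh3a1 step up, and for Vash2 control replicate 1 lies with the KPC libraries.

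Among complement and detoxification genes that fell with both lines, C3, C1s1 and Kng2 had a difference between the lines that was small beside the joint fall. They were picked after their values were seen, and Aldh3a1 of the same lists had a larger one. C3, the central complement protein, was at 10.6, 11.3 and 11.3 FPKM with Panc02, 11.2, 12.3 and 11.5 with KPC and 20.8, 23.5 and 25.3 with control exosomes, so the difference between the lines was -0.08 log2 (-0.29 to 0.14). C1s1, a complement C1 protease, was at 18.2, 21.5 and 21.6 FPKM with Panc02, 21.7, 26 and 20.2 with KPC and 48.6, 51.7 and 53.3 with control exosomes (-0.14, -0.40 to 0.13). For Kng2, a kininogen, the values were 0.919, 1.28 and 1.24 with Panc02, 1.54, 1.53 and 0.803 with KPC and 6.49, 5.8 and 5.83 FPKM with control exosomes. All 6 complement and pentraxin genes among the 131 had Panc02 as the further group, with Ptx3 the widest apart (-0.23, -0.48 to 0.01). Of 8 detoxification genes among the 131, 7 had Panc02 further out, such as Xdh, xanthine dehydrogenase (-0.22, -0.48 to 0.05). Over all 131 genes Panc02 was further out in 122 (93.1%), so neither count sets its list apart. The exception among the detoxification genes, Gstm1, a glutathione transferase, was at 17.1, 20.9 and 23.6 FPKM with Panc02 and 16.9, 24.2 and 18.1 with KPC exosomes. With control exosomes it was at 39.2, 44.7 and 42.8 FPKM.

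In 13 of the 31 genes named by p in either fit, the control mean lay between the tumour groups, a larger share than the 17.5% of all tested genes. A choice by the difference between the lines favours such a place of control, so this count is only a description. None of the 31 passed as different between the lines. The widest apart was a gene model of unnamed product (ENSMUSG00000108815.1), with exons that share positions with genes on both strands. It was at 0, 1.17 and 0.043 FPKM with Panc02, 7.24, 1.59 and 1.78 with KPC and 1.43, 0.0523 and 1.82 with control exosomes. Its difference of -1.57 log2 (-2.82 to -0.32) was uneven, at -3.04, -0.26 and -1.42 in the 3 numbers, and -1.03 without KPC replicate 1. Next in size was Vash2, vasohibin 2, an enzyme that trims the tyrosine at the end of tubulin. Vash2 was at 8.49, 11.2 and 9.71 FPKM with Panc02, 1.59, 3.05 and 3.95 with KPC and 1.67, 8.32 and 8.63 with control exosomes. The difference was 1.52 log2 (0.44 to 2.61), and 1.87, 1.59 and 1.11 within numbers. Control replicate 1 lay among the KPC libraries and the other two control libraries lay near the lowest Panc02 library, so the control level does not tell whether Panc02 raised or KPC lowered it.

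For Slc25a51 and Cacul1 all 3 KPC libraries lay below every control library. Panc02 replicate 1 did too, and Panc02 replicates 2 and 3 lay within the control range. Slc25a51, the carrier of NAD+ into mitochondria, was at 5.29, 5.89 and 6.74 FPKM with Panc02, 5.08, 2.62 and 2.23 with KPC and 5.68, 7.18 and 7.98 with control exosomes, and KPC replicates 2 and 3 were much lower than KPC replicate 1. Cacul1, a cullin-like regulator of the cell cycle, was at 15.1, 19.8 and 18.3 FPKM with Panc02, 14.5, 11.1 and 11.3 with KPC and 16.4, 20.3 and 18.1 with control exosomes. The differences were 0.75 (0.21 to 1.28) and 0.50 log2 (0.17 to 0.83), but only 0.05 and 0.06 in number 1. Usp33, a deubiquitinase, instead had its Panc02 libraries above both other groups, by 0.35, 0.41 and 0.41 log2 over KPC in the 3 numbers, with 5.49, 6.66 and 6.03 FPKM in Panc02, 4.09, 4.77 and 4.29 in KPC and 4.28, 5.1 and 4.97 in control libraries. Slc25a51 shares exon positions with another gene on its own strand, and Cacul1 and Usp33 overlap genes on the other strand.

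Among the genes lowest with Panc02 in this set, Tet2, which oxidises methylated cytosine in DNA, was at 1.18, 1.07 and 1.01 FPKM with Panc02, 1.56, 1.45 and 1.46 with KPC and 1.26, 1.29 and 1.07 with control exosomes. The difference was small but even, at -0.23, -0.25 and -0.29 log2 in the 3 numbers (-0.26, -0.45 to -0.06). Zfp788, a zinc finger protein, was at 3.16, 1.61 and 1.84 FPKM with Panc02, 6.43, 5.04 and 3.35 with KPC and 3.18, 3.77 and 6.38 with control exosomes (-0.89, -1.54 to -0.24). Setd6, a lysine methyltransferase, was at 3.52, 4.93 and 5.15 FPKM with Panc02, 11.8, 5.22 and 8.4 with KPC and 4.8, 5.51 and 3.94 with control exosomes. Its difference of -0.73 log2 (-1.31 to -0.14) came mostly from KPC replicates 1 and 3, and was -0.07 in number 2. Tet2 has an overlapping gene on the other strand.

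**Figure D3:**
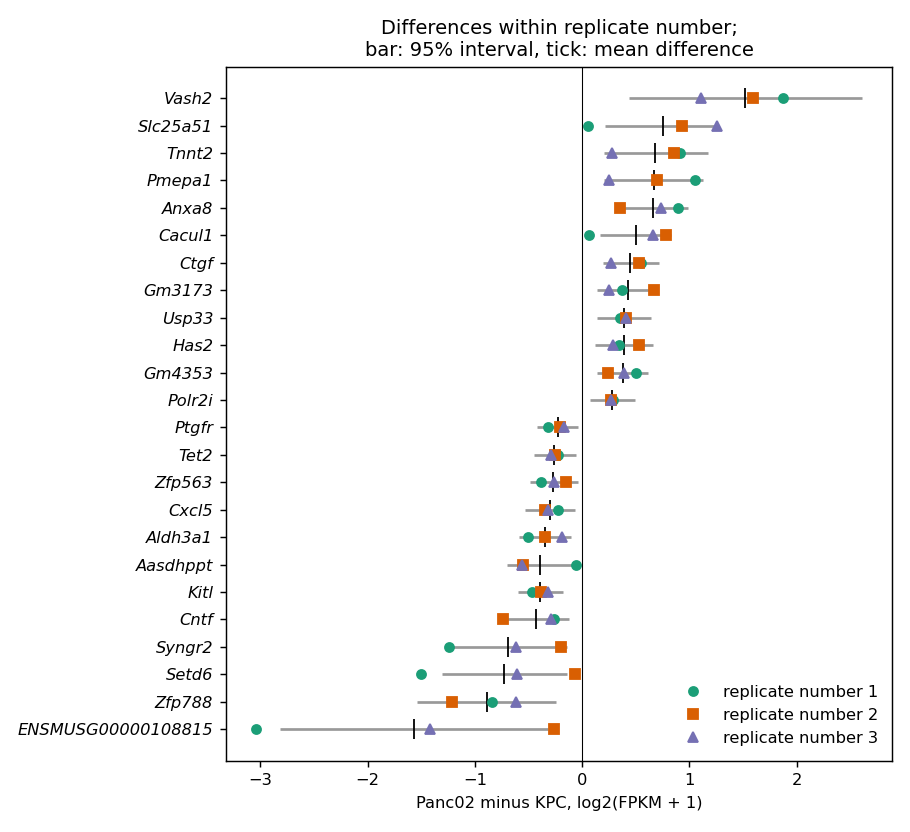
Panc02 minus KPC on the log2(FPKM + 1) scale for the 24 genes with the lowest p in each direction, with a marker for each replicate number, a tick at the mean difference and a bar for its 95% interval. All markers of a gene lie on 1 side of 0, as the choice of genes requires, and the widest bar, of the unnamed gene model, runs from -2.82 to -0.32.

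No member was called in any of the 34 pathway lists (0% of all tested genes were called), and the fibrillar collagens had the highest list median. The 7 fibrillar collagen genes had a median Panc02 minus KPC of 0.24 log2, against 0.01 for all tested genes. Within numbers it was 0.41, 0.40 and -0.08, against 0.04, 0.02 and -0.04 for all tested genes, so it did not hold in number 3. Col1a1, the main chain of collagen I, was at 181, 246 and 228 FPKM with Panc02, 136, 186 and 240 with KPC and 93, 113 and 114 with control exosomes (0.24 log2, -0.24 to 0.73). Lox, which cross-links collagen, was at 441, 498 and 461 FPKM with Panc02, 322, 386 and 476 with KPC and 247, 326 and 302 with control exosomes (0.26, -0.12 to 0.64). In both genes KPC replicate 3 was as high as the Panc02 libraries, and both intervals include 0. With the block the unadjusted limma p was 0.063 for Col1a1 and 0.048 for Lox.

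The other matrix lists were mixed. Of 21 collagen processing genes, 20 had a higher mean with Panc02 (median 0.11), and of 16 fibronectin and matricellular genes 15 did (median 0.13), where 5679 of all 10368 genes lay above 0. Of 13 elastic fibre genes 9 did (median 0.12), of 8 other collagens 7 (0.13), of 10 basement membrane genes 8 (0.02) and of 22 matrix proteases and inhibitors 16 (0.04). The 7 small leucine-rich proteoglycans had 3 above and 4 below 0, with a median of -0.08. Fn1, fibronectin, was at 330, 395 and 379 FPKM with Panc02, 249, 306 and 377 with KPC and 245, 273 and 267 with control exosomes (0.26, -0.10 to 0.62). The medians of all these lists were below 0 in number 3, against -0.04 for all tested genes. They were -0.04 for collagen processing, -0.03 for matricellular genes, -0.09 for elastic fibre genes and -0.12 for other collagens. For basement membrane genes, proteases with inhibitors and proteoglycans they were -0.15, -0.05 and -0.06. The members of a list move together between libraries, so such counts carry no test.

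Contractile genes were the one matrix or cytoskeletal list whose median stayed above 0 in every number, at 0.21, 0.05 and 0.16 log2 for 28 genes, of which 23 lay above 0. Acta2, the smooth muscle actin that marks activated stellate cells, was at 440, 511 and 568 FPKM with Panc02, 379, 499 and 495 with KPC and 299, 341 and 315 with control exosomes. Its difference was 0.15 log2 (-0.19 to 0.49), and the tumour groups overlapped. The 23 TGF-beta and Smad genes had a median of 0.10 and the 18 Yap and Tead targets one of 0.09, both below 0 in number 3. Tead3, a Tead factor, was at 5.29, 8.25 and 8.83 FPKM with Panc02, 3.54, 6.21 and 6.4 with KPC and 4.32, 4.52 and 5.56 with control exosomes (0.41, -0.12 to 0.95).

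At the low end, the 13 mitochondrially encoded genes all lay below 0, with a median of -0.13 log2 that was -0.31, -0.33 and 0.26 in the 3 numbers. The sign thus changed between numbers, as did that of the 77 ribosomal protein genes, at 0.03, -0.16 and 0.18 (median 0.02). The 10 complement and pentraxin genes had a median of -0.08, with 9 below 0, and the 22 detoxification and glutathione genes one of -0.05, with 15 below 0. Interferon, cell cycle, NF-kB, cholesterol and nuclear oxidative phosphorylation genes had medians from -0.02 to 0.03.

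**Figure D4:**
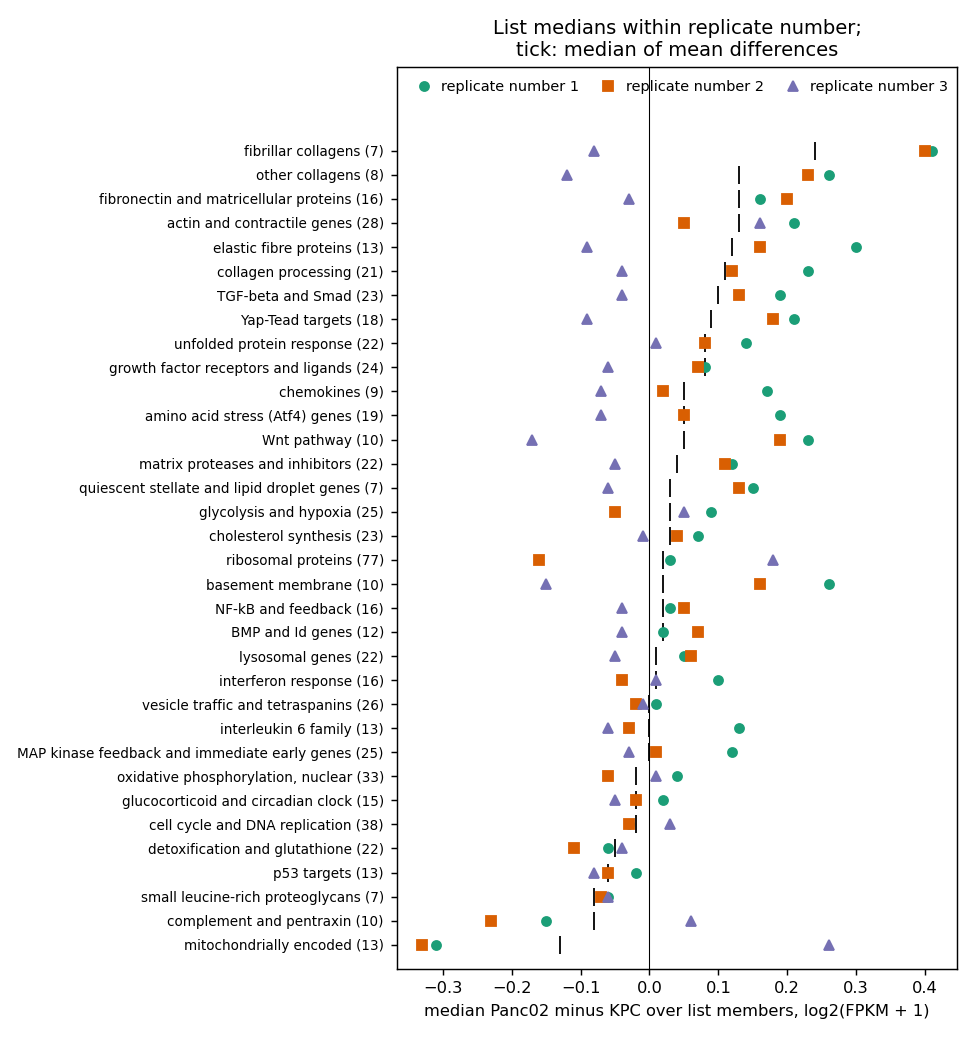
Median Panc02 minus KPC, as log2(FPKM + 1), of each of the 34 gene lists, with the number of tested members in brackets, a marker for each replicate number and a tick for the median of the mean differences. Fibrillar collagens stand at 0.24 and mitochondrially encoded genes at -0.13, and the number 3 marker lies on the other side of 0 in both.

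Of 6 further genes tied to stellate activation, Spp1 had the closest bounds on the difference. Spp1, osteopontin, was at 338, 355 and 357 FPKM with Panc02, 344, 342 and 362 with KPC and 362, 404 and 369 with control exosomes, a difference of 0.00 log2 (-0.21 to 0.22). Timp1, an inhibitor of metalloproteases, differed by 0.09 (-0.47 to 0.65), Tgfb1, the growth factor, by 0.12 (-0.62 to 0.85), and Pdgfrb, the receptor for platelet-derived growth factor, by 0.13 (-0.59 to 0.85). Ccl2, a chemokine for monocytes, differed by 0.05 (-0.62 to 0.71) and Mki67, a marker of dividing cells, by -0.09 (-0.73 to 0.55). The intervals of Tgfb1, Pdgfrb, Ccl2 and Mki67, from the fit without the block, are wider than the median gene's. They leave room for differences of more than 0.5 log2 in either direction. With the block the standard errors of these differences fell from 0.32, 0.32, 0.29 and 0.28 to 0.14, 0.18, 0.09 and 0.14 log2. The room left is then smaller.

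A few genes passed only when libraries were left out, and in most of these the libraries fell into separate high and low levels that crossed the groups. They were found after the values were seen. Without the replicate 1 libraries limma called 3 genes higher and 5 lower with Panc02 exosomes. Gm45717 was at 0, 0.506 and 0.639 FPKM with Panc02, 0.928, 259 and 250 with KPC and 208, 1.62 and 0.562 with control exosomes. KPC replicates 2 and 3 and control replicate 1 were thus high and the other 6 libraries low. Nek7, a kinase of the inflammasome, was at 24.7, 5.36 and 4.76 FPKM with Panc02, 5.12, 19.7 and 20.6 with KPC and 27.1, 6.19 and 5.86 with control exosomes, so its order in replicate 1 was the opposite of that in replicates 2 and 3.

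Rnf24, a ring finger protein, was low only in Panc02 replicates 2 and 3, at 6.05, 0.537 and 0.571 FPKM with Panc02, against 4.72, 5.74 and 6.39 with KPC and 5.83, 6.57 and 6.58 with control exosomes. It was called without the replicate 1 libraries (-2.18 log2, limma adjusted p = 0.00036) and without Panc02 replicate 1 alone (-2.08, adjusted p = 0.00503). Dcbld2 and Tmem70 were lower in Panc02 replicates 2 and 3 than in KPC replicates 2 and 3 (differences of -1.23 and -1.29 log2), and higher in Panc02 than in KPC replicate 1. Of the genes called higher without replicate 1, Vash2 differed by 1.35 log2 (adjusted p = 0.0188), Slc25a51 by 1.09 and Ifitm2, an interferon-induced membrane protein, by 1.04 (adjusted p = 0.0308 for both). With the block Rnf24 was also called without Panc02 replicate 1 (-2.16, adjusted p = 0.00252) and Nek7 without KPC replicate 1 (-1.79, adjusted p = 0.00202). Without KPC replicate 2, Pcdhb22, a protocadherin, was called higher (1.45, adjusted p = 0.0137), with 1.96, 2.23 and 2.04 FPKM in Panc02, 0.147, 2.10 and 0.102 in KPC and 2.38, 2.25 and 2.60 in control libraries. With the block no gene was called without KPC replicate 2 (lowest limma adjusted p = 0.0502). What separates the levels of these genes was not tested.

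**Figure D5:**
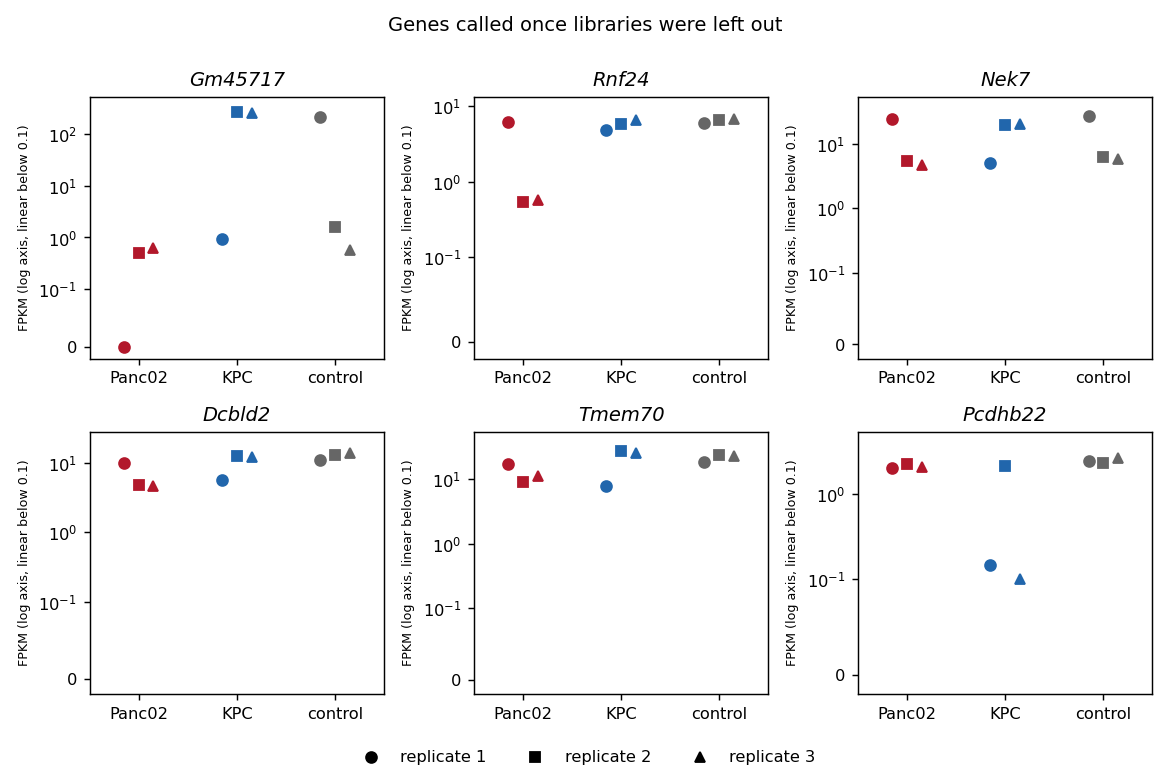
FPKM of 6 genes in each library, by group and replicate number, on a log axis that is linear below 0.1. Gm45717 and Nek7 are high in KPC replicates 2 and 3 and control replicate 1, Nek7 also in Panc02 replicate 1, Rnf24 is low in Panc02 replicates 2 and 3, and Pcdhb22 is low in KPC replicates 1 and 3.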

How the data were processed

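Per the labels' protocols, RNA was extracted with Trizol and made into TruSeq libraries. Per the submitters' processing notes, cutadapt, HISAT2 2.0.4, StringTie 1.2.3 and the GRCm38 build were used. The deposited values are FPKM (fragment numbers scaled by transcript length and library size) that the authors made for 11051 genes in 9 libraries, 3 in each of 3 groups. All 9 value columns were used. FPKM do not keep the read depth, so no counting interval can be given.

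All work was done on log2(FPKM + 1). A gene was kept where 3 or more libraries reached 1 FPKM (10368 genes, with 683 set aside). limma 3.58.1 (R 4.3.3) fitted a group-means model to all 9 libraries with a trended prior, which gave 6 residual degrees of freedom and 2.38 more through the prior. Tests were two-sided, with Benjamini-Hochberg adjustment over all 10368 genes and a threshold of 0.05. The control libraries entered the fit to estimate the spread and to place the control level. The mean of both tumour groups was set against control to choose genes for the placement, a choice made after the data were seen.

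The labels give each library a number from 1 to 3 and no meaning for it. With group means removed, same-numbered Panc02 and KPC libraries correlated at 0.81, 0.42 and 0.511 over genes. This met the rule for pairing, so every result was also fitted with the number as a block (4 residual degrees of freedom, 3.51 more through the prior). Libraries with numbers 2 and 3 crosswise correlated at 0.578 and 0.613, so the correlations set replicate 1 apart more than they pair the others.

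In each direction the text names from the 12 genes with the lowest p among those whose groups lay apart, whose difference had 1 sign in all 3 numbers and whose higher mean was at least 1 FPKM, in either fit. It adds members of the lists with the lowest p, 23 genes given whatever their values, and genes picked after their values were seen where the text says so or names them as members of the 131. The genes, the 34 lists and the markers were chosen with earlier results of these data known. GENCODE M21 held 11044 (99.9%) of the table's identifiers and gave the overlapping genes. Among the genes looked up, Igfbp7, Fbn1, Lox, Fn1, C1s1 and Krt8 also overlap genes on the other strand, and Spp1 overlaps a gene on its own strand. Promoters came from RefSeq. The steps were tested on simulated data. Figures and sequence lookups used Python 3.11.15 with matplotlib 3.10.9 and numpy 2.4.6. Alternatives were the block, the 6 Panc02 and KPC libraries alone, a pseudocount of 0.1, other filters, other scalings between libraries and left-out libraries.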

Additional observations from a re-analysis of the deposited data

How the results depend on the processing

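The counts of 0 genes higher and 0 lower held with the replicate block, with the 6 tumour exosome libraries alone (with and without the block), with a pseudocount of 0.1, with no filter or one at 5 FPKM, and with each scaling. Without the replicate 1 libraries there were 3 higher and 5 lower, and the share of called genes with Panc02 further out was 77.2%. With 1 library left out at a time, with or without the block, 0 to 1 genes were higher, 0 to 1 lower and the share ran from 81.4% to 100%. It was 86.2% with the block, 87.3% with the block and equal totals without mitochondrially encoded genes, and 91.4% to 96.3% under the other settings. Leaving out a Panc02 or KPC library makes the tumour groups unequal. The choice of genes is then no longer free of the difference between the lines, whereas leaving out a control library keeps the tumour groups equal. In each case a group of 2 is assumed to vary like the others. The Spp1 difference turned to -0.01 log2 with equal totals without mitochondrially encoded genes (with and without the block) and with equal medians. Without the replicate 1 libraries Ccl2 was at -0.02 and Kng2 at 0.08. With 1 library left out the range reached or crossed 0 for Ccl2 (-0.22 to 0.25), Gstm1 (-0.04 to 0.21), Kng2 (-0.24 to 0.00), Mki67 (-0.31 to 0.20), Pdgfrb (-0.11 to 0.44), Spp1 (-0.01 to 0.03), Tgfb1 (-0.21 to 0.39) and Timp1 (-0.15 to 0.29). With the block as well it crossed 0 for Ccl2 (-0.01 to 0.14), Gstm1 (-0.06 to 0.18, with -0.05 without KPC replicate 3), Kng2 (-0.25 to 0.06, with 0.02 without KPC replicate 1), Mki67 (-0.19 to 0.05), Nek7 (-1.79 to 0.17, with 0.08 without KPC replicate 2), Pdgfrb (-0.08 to 0.31), Spp1 (-0.04 to 0.03) and Tgfb1 (-0.02 to 0.21). The cause was not tested. Without the block Ctgf kept 0.36 to 0.56, Anxa8 0.56 to 0.82, Tnnt2 0.47 to 0.80, Kitl -0.44 to -0.35 and Vash2 1.26 to 1.73 log2. Of the list medians under all settings, 877 stayed within the SD over the 3 numbers and 109 moved by more. The read depth is unknown, and 3 libraries a group limit what can be called.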

Other observations

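The within-number differences between Panc02 and KPC exosomes agreed little across all genes and more among the 131 genes called for both tumour exosomes together. Across the 10368 tested genes, which are not independent replicates, the differences of numbers 1 and 2 correlated at 0.129, those of 1 and 3 at -0.0385 and those of 2 and 3 at -0.0683. Among the 131 genes these values were 0.821, 0.411 and 0.205. They are descriptions without a test, and genes that rose and genes that fell lie at opposite ends of each of them.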
